A study of Mus musculus with 12 samples.

Results

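The genes described here build the moving core of cilia and sperm tails and the dense fibres around it. They were chosen by name from the caput epididymidis transcriptome, as gene names beginning with Dnah, Dnaic, Dnali, Dnalc, Dnal, Tekt, Rsph or Odf followed by a digit. The rule found 24 of the 22021 genes in the table. None of these 24 is a dynein heavy chain, because the table spells those genes Dnahc, so 10 heavy chains are given separately as neighbours of the same pathway. Each gene is represented by its transcript with the highest mean level.

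The comparison is between caput tissue of wild-type (WT) C57BL/6 mice aged 13 months and caput tissue of C57BL/6 mice of the same age that lack Gpx5 (KO), the gene of a secreted glutathione peroxidase of the epididymis. Per the labels' protocols, tissue from 7 mice per genotype was combined into 1 transcriptome library. Per the same protocols, the caput was punctured and left in buffer beforehand so that sperm could escape. With 1 library per group there is no replicate error and no test between genotypes, and every interval below is at 95% and covers counting error only. Another readout of the same genes comes from small RNA libraries, again 1 pooled library per genotype and tissue. They cover the testis and the 3 epididymal regions of 13-month mice, and the caput of 2-month mice, for which the labels give no number of animals.

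The axoneme is a ring of doublet microtubules around a central pair. Dynein arms on the doublets slide them past each other, radial spokes carry control signals from the central pair, and tektins run as filaments along the doublets. Multiciliated epithelial cells and sperm share most of these parts, while the sperm tail adds outer dense fibres, stiff rods that accompany the axoneme, and swaps some axonemal subunits for testis versions. The caput epithelium itself carries no motile cilia, whereas the efferent ducts that lead into it do.

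Members were sorted by general knowledge of where the protein is used. A set of 16 was called cilia-shared, 6 were called sperm-only (Odf1, Odf3, Odf3l1, Odf4, Rsph6a and Tekt5), Rsph4a was called a cilia-only isoform, and Odf3l2 was not classified. Levels are in RPKM, reads per kilobase of transcript and per 1000000 reads, which allows genes to be compared per length. Differences are KO minus WT of log2(RPKM + 1). Adding 1 makes the differences of weakly expressed genes look smaller than they were. A gene with at least 1 RPKM in a library was called lower or higher at a difference of 1 or more, which is 2-fold.

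Of the 24 members, 22 reached 1 RPKM in a library, 20 of these were called lower in KO, 0 were called higher and 2 lay within 2-fold. Over all 15000 genes compared in the same way, 22.1% were called lower and 2.77% higher. The median difference was -4.17 for the members and 0.05 for all genes compared. Summed over the 24 members, the level was 1624 RPKM in WT and 125 RPKM in KO, 13.0-fold lower. The other two, Rsph4a and Odf3l2, stayed under 1 RPKM in both libraries.

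The targeted gene checks the labels of the transcriptome pair. Gpx5 was at 8474 RPKM in WT and 918 RPKM in KO, a difference of -3.21. Reads of the gene were thus still present in KO, and which stretch of it was removed is not given in the sources used here. The WT library had 14348655 reads and the KO library 13929327. When all values are centred on the caput epithelium markers, whose median was 1.27, the 2 members within 2-fold also pass the limit, and the split over all genes moves from 3321 lower and 415 higher to 9406 and 4.

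Markers of several cell types also differed between these libraries. Spermatid markers were called lower in 7 of 7, Odf1 being 1 of them, and summed to 9587 RPKM in WT and 139 RPKM in KO. Spermatocyte markers were lower in 6 of 6 (149 and 7.34 RPKM), Leydig cell markers in 5 of 5 (342 and 11.6 RPKM) and Sertoli cell markers in 4 of the 4 compared (39.8 and 5.56 RPKM, with Fshr at 0 in KO). Caput epithelium markers were called higher in 7 of 9 (12566 and 31293 RPKM), so the labelled tissue carries its defining markers in both libraries. The 3 basal cell markers were within 2-fold on log2(RPKM + 1), each with the higher level in KO (16.4 and 30.6 RPKM summed). The part of these cell types, and of residual sperm, in the members' differences was not tested, and in bulk tissue fewer cells of a type cannot be told apart from less RNA per cell.

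Of the 7 markers of multiciliated cells, 4 reached 1 RPKM. Ccdc67 (now Deup1; 45.7 and 1.16 RPKM) and Foxj1 (11.1 and 1.504 RPKM), a factor of ciliated cells and spermatids, were called lower. Ccno was at 15.8 and 31.0 RPKM and Sntn at 0.843 and 1.16 RPKM, both within 2-fold. Cdhr3, Gm606 (now Gmnc) and Gm6320 (now Mcidas) stayed under 1 RPKM and none was at 0. The list summed to 74.6 RPKM in WT and 36.4 RPKM in KO. Rfx2, an RFX factor on a list of regulators that shares Ccdc67, Ccno and Foxj1 with these markers, was at 34.3 and 1.64 RPKM. On that list 3 of the 5 genes compared were called lower.

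**Figure D1:**
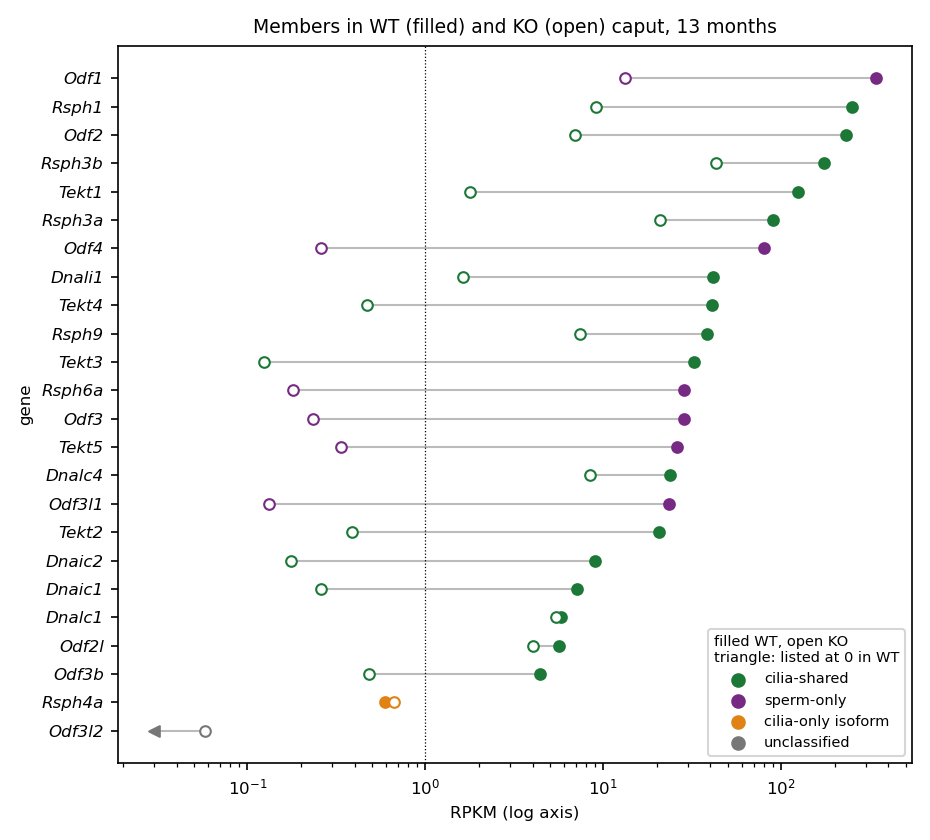
Level of each of the 24 members in the WT (filled points) and KO (open points) caput library at 13 months, in RPKM on a log axis, coloured by class and ordered by WT level. The 6 sperm-only genes lie between 23.3 and 340.5 RPKM in WT and between 0.133 and 13.3 RPKM in KO, while Dnalc1 and Rsph4a have nearly the same level in both.

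Before the single genes, the promoters are shown, since most members were lower together. Multiciliated cells and spermatids both use RFX factors, which bind the X-box, and spermatids also use the factor CREM, which binds CRE sites. Promoters of 20 members are in the RefSeq table used here (build GRCm38.p6), 28 in all because some genes have several starts, and the 250 bases before each start were searched on both strands. The short RFX core GTTGCC was found in 7 of 28 (25%), against 10.5% of 21263 promoters of protein-coding genes. The 7 promoters belong to Tekt1, Tekt2, Dnaic2, Odf3 and Odf3l1, with 2 promoters each for Tekt2 and Odf3l1, so they are not 7 independent matches. By class, 4 of 22 cilia-shared promoters (18.2%) and 3 of 6 sperm-only promoters (50%) held it. The short CRE core TGACG was found in 4 of 28 (14.3%), all of Odf2 or Tekt1, against 20.2% of all promoters. The full CRE site TGACGTCA, which contains TGACG, was in 0 of 28 against 1.92%, the forkhead site GTAAACA in 1 of 28 (3.57%, Tekt3) against 2.62%, and the full palindromic X-box in 0 of 28 against 0.419%. A match is a description of these letters and not a bound site.

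The 5 promoters below are the most upstream ones of the genes with the RFX core, and are shown because they carry the match the count rests on. They run 5′ to 3′ on the strand of the gene and end at the base before the start, with matches to GTTGCC or to TGACG, in either orientation, in capitals. Tekt1 (chr11:72361883-72362132, minus strand) has matches to GTTGCC 35 and 15 bases before the start and to TGACG 148 bases before it. Tekt2 (chr4:126325689-126325938, minus strand) has matches to GTTGCC at 96 and 22 bases. Dnaic2 (chr11:114727169-114727418, plus strand) has 1 at 26 bases, Odf3 (chr7:140847666-140847915, plus strand) 1 at 65 bases, and Odf3l1 (chr9:56853815-56854064, minus strand) 1 at 123 bases.
Tekt1: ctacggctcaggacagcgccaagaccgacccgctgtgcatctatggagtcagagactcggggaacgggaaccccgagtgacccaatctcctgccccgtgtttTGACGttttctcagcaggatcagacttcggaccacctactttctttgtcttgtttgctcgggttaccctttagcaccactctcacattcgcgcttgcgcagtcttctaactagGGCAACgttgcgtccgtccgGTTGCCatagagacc
Tekt2: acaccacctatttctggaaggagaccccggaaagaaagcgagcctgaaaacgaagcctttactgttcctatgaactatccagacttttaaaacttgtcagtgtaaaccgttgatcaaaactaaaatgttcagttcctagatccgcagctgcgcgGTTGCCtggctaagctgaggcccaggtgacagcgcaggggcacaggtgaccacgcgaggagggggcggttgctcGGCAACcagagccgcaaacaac
Dnaic2: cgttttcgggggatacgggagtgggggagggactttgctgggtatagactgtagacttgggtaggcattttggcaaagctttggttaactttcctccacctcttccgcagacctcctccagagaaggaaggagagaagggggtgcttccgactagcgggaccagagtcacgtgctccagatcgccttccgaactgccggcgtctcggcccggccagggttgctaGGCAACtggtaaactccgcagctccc
Odf3: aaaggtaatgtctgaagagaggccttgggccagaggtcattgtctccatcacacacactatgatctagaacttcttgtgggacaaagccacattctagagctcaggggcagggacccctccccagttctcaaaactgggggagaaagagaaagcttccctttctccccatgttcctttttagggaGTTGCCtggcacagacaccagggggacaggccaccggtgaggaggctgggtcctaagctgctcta
Odf3l1: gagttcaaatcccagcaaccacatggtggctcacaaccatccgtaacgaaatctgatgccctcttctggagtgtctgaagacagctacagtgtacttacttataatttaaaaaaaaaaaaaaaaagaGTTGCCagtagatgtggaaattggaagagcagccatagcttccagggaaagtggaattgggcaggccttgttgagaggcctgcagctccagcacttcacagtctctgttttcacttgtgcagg

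Of the 8 outer dense fibre genes, 6 were called lower, 1 was within 2-fold and 1 was under 1 RPKM, with WT levels from 0 to 340.5 RPKM. Odf1, a main protein of the fibres, was at 340.5 RPKM in WT and 13.3 RPKM in KO, from 5398 and 204 reads. It was 25.7-fold lower (22.3 to 29.7), a difference of -4.58, and it kept the highest KO level of the sperm-only genes. Odf4, another fibre protein, was at 80.0 RPKM in WT and 0.259 RPKM in KO, where 4 reads remained. It was 309-fold lower (120 to 1137), the lowest difference of any member at -6.01. Odf3 had 28.4 and 0.233 RPKM and was 122-fold lower (41.4 to 594, 3 reads in KO). Odf3l1, a relative of Odf3, had 23.3 and 0.133 RPKM and was 175-fold lower (48.2 to 1452, 2 reads in KO). Ratios resting on so few KO reads have wide intervals, and those of Odf3, Odf3l1 and Odf4 overlap each other but not that of Odf1.

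Odf2, which takes part in the dense fibres and also in the centrosome and the base of cilia, was counted as cilia-shared. Its strongest transcript was at 232 RPKM in WT and 6.93 RPKM in KO, 33.4-fold lower (29.2 to 38.4). The table lists 6 Odf2 transcripts, and they fall into 2 levels. NM_001113213 and NM_001177659, the longer ones at 3902 and 3905 bases, were at 102 RPKM each in WT and at 6.05 RPKM each in KO, 16.9-fold lower (15.1 to 19.0). The 4 shorter ones, of 2248 to 2402 bases, were at 218 to 232 RPKM in WT and at 6.58 to 6.93 RPKM in KO, 33.1- to 34.3-fold lower. The intervals of the longer and the shorter transcripts do not overlap. The transcripts of the gene share reads, so their values are not independent, and NM_013615 and NM_001177662 have identical values.

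The remaining 3 Odf genes had smaller gaps or too few reads. Odf2l, a paralogue of Odf2, was at 5.63 RPKM in WT and 4.01 RPKM in KO, a difference of -0.40 that did not reach 2-fold, and its read ratio was 1.40-fold lower (1.11 to 1.77). Odf3b, a relative of Odf3 that is not restricted to the testis, was at 4.42 and 0.483 RPKM, 9.15-fold lower (4.20 to 23.7) from 66 and 7 reads. With a pseudocount of 5 its call was lost. Odf3l2 was listed at 0 in WT and had 1 read in KO, so no fold is given.

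All 5 tektins were called lower, with differences from -5.49 to -3.96 and a summed level of 244 RPKM in WT and 3.10 RPKM in KO. Tekt1, found in cilia and sperm tails, was the most abundant, at 124 RPKM in WT and 1.79 RPKM in KO, 69.5-fold lower (49.8 to 100.02). Tekt2 had 20.6 and 0.384 RPKM and was 53.5-fold lower (26.9 to 125). Tekt3 had 32.2 and 0.124 RPKM and was 260-fold lower (88.7 to 1264), with 3 reads in KO. Tekt4 had 40.7 and 0.469 RPKM and was 86.8-fold lower (47.0 to 182). Tekt5, the tektin taken as sperm-only, had 25.9 and 0.337 RPKM and was 76.9-fold lower (35.0 to 210.5), an interval that overlaps those of Tekt1 to Tekt4. Among the tektins, then, the sperm-only gene did not stand apart from the cilia-shared ones.

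The radial spoke genes were more spread out. Rsph1, a spoke head protein, was at 249 RPKM in WT and 9.14 RPKM in KO, 27.2-fold lower (23.1 to 32.3). Rsph6a, the testis version of the spoke head protein Rsph4a, was at 28.6 and 0.180 RPKM, 158-fold lower (61.6 to 583, 4 reads in KO). Rsph4a, the version used in motile cilia, was at 0.592 RPKM in WT and 0.669 RPKM in KO, from 31 and 34 reads, with a KO over WT ratio of 1.13 (0.674 to 1.90). The 2 paralogues of a spoke head subunit therefore had ratios whose intervals do not overlap, although Rsph4a stood below the level at which genes were called. Rsph9, also a spoke head protein, kept 19.4% of its WT level, at 38.0 and 7.39 RPKM, 5.14-fold lower (4.13 to 6.46). Its span in the RefSeq table overlaps that of Mrps18a, which was at 13.4 and 10.7 RPKM. Rsph1 (with Ubash3a, 0.212 and 0.0729 RPKM), Dnali1 (with Gnl2, 15.4 and 10.5 RPKM) and Dnaic1 (with Enho, 3.07 and 2.07 RPKM) have such neighbours too. Rsph3a (Gm1604a), Tekt1 (Gm51867 and Gm34317), Tekt3 (Gm36926) and Tekt5 (Gm41419) overlap genes for which no level is given here. Whether the counting used strand is not given in the sources used here, so reads of such pairs may be mixed.

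Rsph3a and Rsph3b, near-identical copies of a spoke stalk gene, held the highest KO levels of all members. Rsph3b was at 175 RPKM in WT and 42.7 RPKM in KO, 4.09-fold lower (3.81 to 4.39). Rsph3a was at 89.9 and 20.7 RPKM, 4.33-fold lower (3.96 to 4.76). How the authors' counting split reads between such copies is not given in the sources used here, so the split between the copies is uncertain.

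The smaller dynein subunits covered the whole range from near equal to over 50-fold lower. Dnaic1 and Dnaic2, the intermediate chains of the outer dynein arm, were at 7.08 and 8.96 RPKM in WT and at 0.259 and 0.175 RPKM in KO. They were 27.3-fold (14.1 to 60.4) and 51.2-fold (24.6 to 128) lower. Dnali1, a light intermediate chain of the inner arm, was at 41.2 and 1.62 RPKM, 25.5-fold lower (19.0 to 34.9). Dnalc4, a light chain gene, was at 23.8 and 8.41 RPKM, 2.82-fold lower (2.37 to 3.37).

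Dnalc1, now named Dnal1, encodes a light chain that sits on the outer arm heavy chain. Its transcript was at 5.75 RPKM in WT and 5.45 RPKM in KO, from 475 and 437 reads, with a fold of 1.06 (0.925 to 1.20). Dnalc1 was thus the member with the smallest difference, at -0.07, while both of its outer arm partners Dnaic1 and Dnaic2 were called lower.

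Set side by side, the sperm-only members had the larger median gap. All 6 sperm-only members and 14 of 16 cilia-shared members were called lower, with medians of -4.58 and -2.88. Without the pseudocount, the median WT over KO ratio was 140.2 for the sperm-only members and 26.4 for the cilia-shared ones. Ratios above 50 were seen in 5 of 6 sperm-only members, Odf1 being the exception, and in 5 of 16 cilia-shared members, which were Tekt1 to Tekt4 and Dnaic2. The classes overlapped and were not tested against each other, and the medians moved with the pseudocount. The cilia-shared median was -4.45 with a pseudocount of 0.1 and -1.90 with 5, and the sperm-only median was -6.54 and -2.69. As summed levels, the sperm-only members were at 527 RPKM in WT and 14.4 RPKM in KO (2.73% of WT). The cilia-shared ones were at 1097 and 110.1 RPKM (10.04% of WT). Rsph3a and Rsph3b had the largest KO levels in that last sum.

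**Figure D2:**
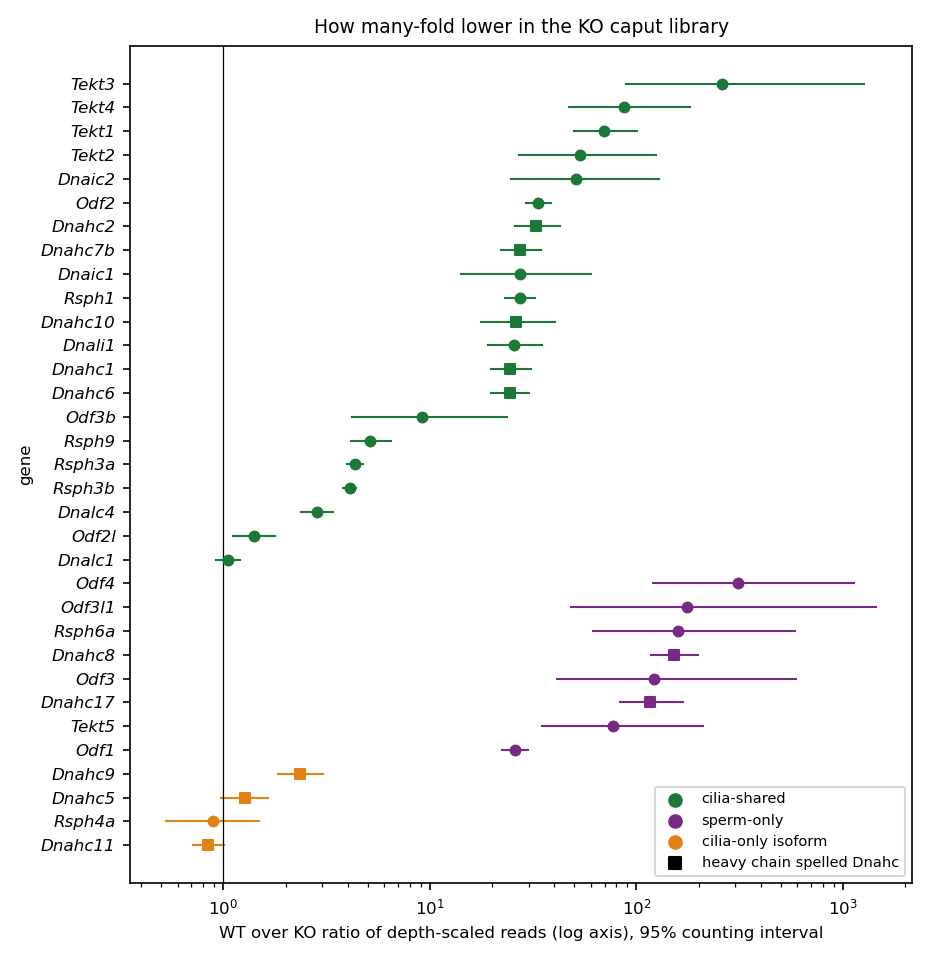
WT over KO ratio of depth-scaled reads for 23 members with reads in WT and for 10 dynein heavy chains (squares), on a log axis with 95% counting intervals, grouped by class. Sperm-only genes lie between 25.7 and 309, cilia-shared genes between 1.06 and 260, and the cilia-only isoforms between 0.846 and 2.35.

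Grouped by class, the dynein heavy chains, which are the motor subunits, lay at 3 levels. The classes were chosen with earlier results of these data known, so this grouping is a description and not an independent check. They have long transcripts and therefore many reads even at low RPKM. Dnahc8 and Dnahc17, the outer arm heavy chains of sperm, were at 44.9 and 19.0 RPKM in WT and at 0.295 and 0.164 RPKM in KO. They were 152-fold (118 to 199.6) and 116-fold (82.96 to 168) lower. Dnahc5, Dnahc9 and Dnahc11, the outer arm heavy chains of airway and other motile cilia, were at 0.611, 1.13 and 1.24 RPKM in WT and at 0.483, 0.480 and 1.47 RPKM in KO. Their WT over KO ratios were 1.27 (0.975 to 1.65), 2.35 (1.84 to 3.03) and 0.846 (0.711 to 1.01), so 2 of the 3 intervals include 1 and that of Dnahc9 does not.

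The 5 heavy chains used in both organelles, Dnahc1, Dnahc2, Dnahc6, Dnahc7b and Dnahc10, lay between 24.4- and 32.7-fold lower. Their intervals, from 17.7 to 42.4 over the 5 genes, overlap each other and none overlaps those of Dnahc8 and Dnahc17. The members Rsph1, Dnali1, Dnaic1, Odf1 and Odf2 lay close to these heavy chains, at 25.5- to 33.4-fold. With the heavy chains added to the classes, 19 of 21 cilia-shared and 8 of 8 sperm-only genes were called lower, and 7 of the 8 sperm-only genes had ratios above 50.

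Other genes of the pathway, listed from general knowledge of the axoneme, were mostly lower as well. Of 50 further genes of the motile axoneme, all with at least 1 RPKM, 48 were called lower and 0 higher, with a median of -3.31. The most abundant were Ropn1l (311 and 6.39 RPKM), a radial spoke protein, 1700003M02Rik (174 and 1.42 RPKM), Efcab6 (80.2 and 0.420 RPKM) and Spag6 (71.6 and 1.48 RPKM), a central pair protein. The 2 that were not called, named after their values were seen, were Ccdc11 (15.5 and 10.03 RPKM) and Ccdc114 (2.50 and 0.937 RPKM). Of 9 genes for the assembly of dynein arms, 8 were called lower (median -2.26), including Lrrc50 (42.7 and 1.15 RPKM), Lrrc6 (31.5 and 0.655 RPKM) and Zmynd10 (28.7 and 0.737 RPKM). Ccdc103 and Spag1, both called lower, are counted in both lists.

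Genes of the sperm tail outside the axoneme were called lower throughout. All 9 genes of the fibrous sheath and its partners, the sleeve around the principal piece of the tail, were called lower (median -5.13), including Spa17 (327 and 12.0 RPKM) and Akap4 (299 and 4.91 RPKM), which is also 1 of the spermatid markers. All 8 subunits of CatSper, the calcium channel of the tail, were called lower (median -3.20), including Catsper2 (52.3 and 4.03 RPKM).

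Motor and transport genes whose use is not limited to motile axonemes were split. Of 13 cytoplasmic dynein subunits 5 were called lower and 0 higher (median -0.71), where 22.1% of all genes compared were called lower. The most abundant were light chains that cargo motors use, some of them also found in axonemes. Dynlt1b (342 and 51.3 RPKM) and Dynll1 (89.6 and 43.2 RPKM) had the higher level in WT, and Dynlt3 (34.7 and 62.3 RPKM) and Dynlrb1 (31.1 and 59.7 RPKM) had it in KO. The lowest difference of these subunits, -3.79, was that of Dynlrb2 (32.2 and 1.39 RPKM). Of 13 genes of intraflagellar transport, which carries parts into growing cilia and tails, 8 were called lower and 0 higher (median -1.28). Ift172 (49.1 and 10.2 RPKM) and Ift140 (26.6 and 3.83 RPKM) were among them, and Ift20 (18.4 and 24.2 RPKM) was not.

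**Figure D3:**
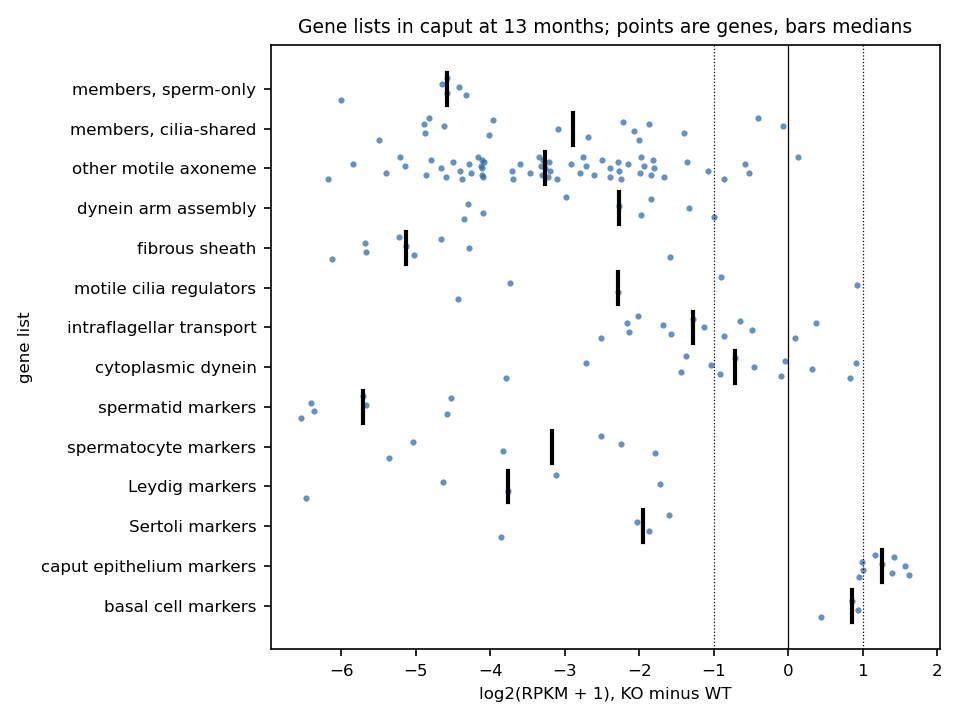
KO minus WT difference on log2(RPKM + 1) for genes of the lists shown with at least 1 RPKM in a library, with 2 classes of members at the top. The CatSper and multiciliated cell lists are not drawn. The other motile axoneme row includes the dynein heavy chains, unlike the count of 50 genes in the text. Points are genes, black bars are medians and dotted lines mark 2-fold; the medians run from -5.70 for spermatid markers to 1.27 for caput epithelium markers.

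Small RNAs gave a separate readout of the members. Reads of 18 to 40 nt matched to member mRNAs were scaled to RPM, reads per 1000000 classified reads, where classified means listed with a match in the authors' files. In caput at 13 months there were 276 reads in WT and 21 in KO, or 19.96 RPM (17.7 to 22.5) and 1.14 RPM (0.708 to 1.75), 17.5-fold lower in KO (11.2 to 28.7), which is -4.13 on the log2 scale. Reads of the mRNA class as a whole were also fewer in KO caput, at 154987 of 18362642 classified reads against 476638 of 13825045 in WT. With reads of the mRNA class as the base the log2 value was -2.10. Part of the members' gap was thus shared by all reads of that class. In testis the libraries held 577 and 631 reads, or 67.4 and 64.2 RPM, with a KO over WT ratio of 0.953 (0.850 to 1.07). Levels in corpus were 3.51 and 6.10 RPM, from 102 reads of WT and 51 of KO, a ratio of 1.74 (1.22 to 2.46). Those in cauda were 4.50 and 7.25 RPM, from 74 and 83 reads, a ratio of 1.61 (1.16 to 2.23). Per 1000000 reads of the mRNA class, corpus held 354 in WT and 521 in KO. Cauda held 512 and 524 on that base, which is nearly equal. All these totals count reads of both strands with up to 2 mismatches. Sense reads, on the strand of the mRNA, were 63 of 74 in WT cauda but 52 of 83 in KO cauda. For corpus they were 84 of 102 and 38 of 51. Reads without a mismatch gave 3.29 (WT) and 4.28 RPM (KO) for cauda, and 2.65 and 3.95 RPM for corpus. No ratio was made from sense reads alone. In caput at 2 months 0 reads were found in WT and 1 in KO, where 3 counts would be 0.778 and 0.391 RPM. These libraries held only 3671 (WT) and 8202 (KO) reads of the mRNA class, so an absence at that age cannot be read from these counts.

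A single member, Dnalc1, supplied most of these reads in testis and in the WT caput. It had 426 of 577 reads in WT testis (73.8%), 496 of 631 in KO testis (78.6%) and 187 of 276 in WT caput (67.8%), but 4 of 21 in KO caput. In caput this came to 13.5 RPM for WT against 0.218 RPM for KO, 62.1-fold lower (23.9 to 230.3), whereas its mRNA was nearly equal in the same tissue and age. Testis Dnalc1 reads were at 49.7 and 50.4 RPM. Dnalc1 levels in corpus were 0.482 RPM in WT and 0.598 RPM in KO, from 14 and 5 reads of libraries of unequal depth, with a KO over WT ratio of 1.24 (0.350 to 3.65). In cauda they were 0.0609 and 0.611 RPM, from 1 and 7 reads. The 187 reads of WT caput came from 138 distinct sequences, with 135 of the 174 sense reads in the length range and with the first base described next.

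Male germ cells cut piRNAs from long precursors, and these small RNAs tend to begin with U, which the reads give as T. No test of origin was made here, and only length and first base are described. Of the sense reads of Dnalc1, 77.6% in WT caput, 70.9% in WT testis and 74.2% in KO testis started with T and had a length of 24 to 32 nt. For the other members together this share was 36.1%, 40.8% and 39.8% in those libraries. Below are 4 sequences of at most 30 nt, chosen among those beginning with T, that were listed in WT caput and in both testis libraries and were not listed in KO caput. Longer sequences, some of them with more reads, are not shown. Nor are other sequences of this length that were listed in the same libraries, among them a sequence that begins with A. The 4 shown run 5′ to 3′, matched the Dnalc1 mRNA without a mismatch, and have the first base, the T counted above, in capitals. Fragment A had 4 reads in WT caput, 5 in WT testis and 6 in KO testis. Fragment B had 3, 8 and 5 reads in the same order, fragment C 3, 1 and 3, and fragment D 2, 1 and 4. Whether they also match other places in the genome was not tested.
Dnalc1 fragment A: Taggaacgcacacaggagtccggactcaga
Dnalc1 fragment B: Tgacaatcaactctaaatccatacaagaat
Dnalc1 fragment C: Tagaattattgactgattgtggagtagtc
Dnalc1 fragment D: Tatgagtagacacttaaagactgaatttgg

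**Figure D4:**
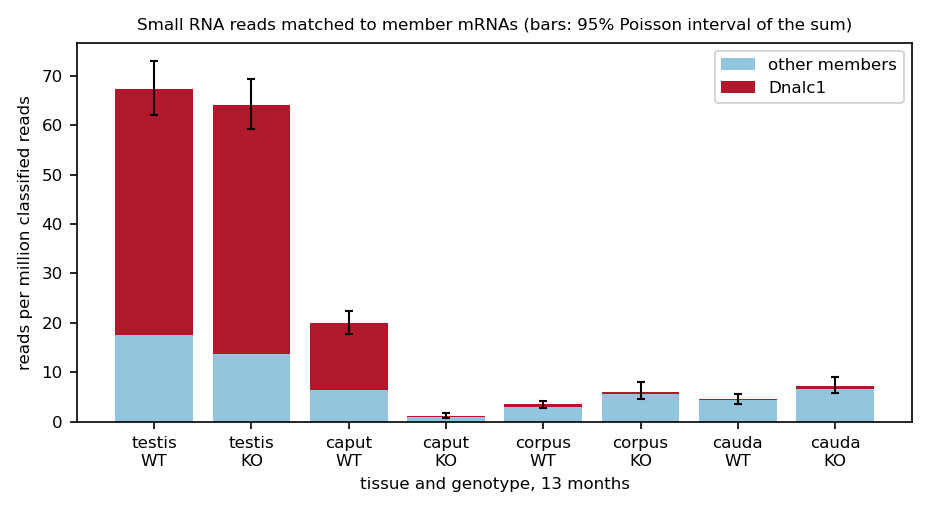
Small RNA reads matched to member mRNAs on either strand, in RPM of classified reads, in 8 libraries at 13 months. Bars are split into Dnalc1 and the other members, with the 95% Poisson interval of the sum. Dnalc1 makes up most of both testis bars and of the WT caput bar, which reaches 19.96 against 1.14 for KO caput.

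Without Dnalc1 the caput gap was smaller. The other 23 members had 89 reads in WT and 17 in KO, 6.95-fold lower (4.11 to 12.5). Odf2 levels in caput were 2.24 RPM for WT against 0.272 RPM for KO, from 31 and 5 reads. In the same order they were 1.20 and 2.99 RPM in corpus (35 and 25 reads), 1.16 and 3.06 RPM in cauda (19 and 35 reads) and 5.14 and 3.76 RPM in testis (44 and 37 reads). Counting both strands, Odf2 was thus higher in WT in caput and higher in KO in corpus and cauda, while its testis levels were closer to each other. The cauda direction is uncertain. Of the cilia-shared reads there, which include those of Odf2, 24 of 33 in WT but 21 of 51 in KO were sense. Cilia-shared reads without a mismatch were at 1.40 RPM in WT cauda and 1.57 RPM in KO cauda (23 and 18 reads). No interval was made for the small RNA reads of Odf2 alone. Odf1 had 0.796 and 0.163 RPM in caput (11 and 3 reads), 0.688 and 1.08 RPM in corpus (20 and 9 reads), 2.25 and 2.62 RPM in cauda (37 and 30 reads) and 3.39 and 2.85 RPM in testis (29 and 28 reads). The Odf1 sequence seen most often matched with 2 mismatches, so its source is uncertain. Dnali1 had 0.940 and 0.0545 RPM in caput (13 and 1 reads) and 3.74 and 2.54 RPM in testis (32 and 25 reads). The most strongly expressed members in the WT transcriptome after Odf1, Rsph1 and Odf2, thus had 4 and 31 small RNA reads in WT caput, and Tekt1, at 124 RPKM, had 1.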

How the data were processed

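The RPKM values per RefSeq transcript were made by the authors with GFOLD 1.1.3, per the file headers, and cover 28344 transcripts. The same deposited table gives log2 fold changes and GFOLD values. Its E-FDR, a kind of p-value that the authors deposited, equals 1 for each of the 28344 transcripts and was not used. The small RNA files deposited by the authors hold counts of reads per distinct sequence, which were matched against GenBank, Rfam and miRBase allowing 2 mismatches, per the file headers. TopHat2, Bowtie 0.12.7 and mm9 are named per the submitters' processing notes, with no role.

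Whole reads behind each RPKM were found with Python 3.11.15 as the whole transcript length for which both libraries' reads and the deposited log2 fold change come out right. Where several lengths solved this (Rsph3a and Dnalc1 among the members compared), the nearest to the direct solution was used. Tested on 800 simulated transcripts of this comparison, 91.1% of those with up to 10000 WT reads came back exactly. Of 200 transcripts lowered 4-fold, 87% were called. Intervals held the true ratio in 94.5%, but they were made from the simulated reads and not from recovered ones. That share therefore does not check the recovery. Ratios have exact conditional binomial intervals and small RNA levels exact Poisson intervals (SciPy 1.17.1). Small RNA reads were assigned by RefSeq accession, counts turned into dates in the 2-month files were read back from the month, and reads without molecular identifiers are not independent molecules. The RefSeq table held the accessions of 26880 transcripts, through which 41 of 42 gene names that had become dates were restored.

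The members, classes, lists and motifs were chosen with earlier results of these data known. Every member is named, and of each other list up to 4 genes with the highest mean RPKM, besides genes named for a count, a marker level or a lowest difference. Alternatives covered the pseudocount, filter, scaling, transcript and measure.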

Additional observations from a re-analysis of the deposited data

Results flagged for a closer look

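On the RPM scale, small RNA reads of the member mRNAs went in opposite directions between tissues at 13 months. The KO over WT log2 value was -4.13 in caput, while it was 0.80 in corpus and 0.69 in cauda, each from 1 library per genotype, and the difference between tissues was not tested. Without Dnalc1 these values were -2.80, 0.86 and 0.58. All of them count reads of both strands. In cauda the sense share of all member reads was smaller in KO (52 of 83 reads) than in WT (63 of 74).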

How the results depend on the processing

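The number of members called lower stayed between 19 and 22 under the 10 other settings tried for the pseudocount, filter, scaling, transcript and measure, and no called member changed sign. With a pseudocount of 0.1 the medians were -4.45 for cilia-shared and -6.54 for sperm-only members, with a pseudocount of 5 they were -1.90 and -2.69, and with fold changes from the authors' deposited table -4.56 and -6.62. Centred on the caput epithelium markers, the cilia-shared median was -4.15. Using reads of the mRNA class as the base, the caput small RNA value was -2.10 in place of -4.13. In alternatives added after seeing the data, the medians were -3.10 and -4.58 with the Dnahc genes and -2.45 and -4.61 with Tekt3 and Tekt4 as sperm-only. No paired analysis was possible because each group has 1 library. Depth limits the ratios of the 10 members compared with fewer than 10 reads in KO.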
